A study of Mus musculus with 12 samples.

Results

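The transcripts of 10 genes of transforming growth factor beta (TGF-beta) and activin signaling were followed in the hearts of mice lacking the complex II assembly factor gene Sdhaf4. They were chosen by name: the ligand genes Tgfb1, Tgfb2, Tgfb3 and Inhbb, the receptor genes Tgfbr1, Tgfbr2 and Tgfbr3, the signal transducer Smad3, and the inhibitors Smad7 and Fst. Each of the 10 names matched 1 row of a table of 43686 rows, and all 10 passed the filter on low counts that left 17155 rows to test. RNA of the ventricular wall of 12 hearts was sequenced, 6 from WT and 6 from KO mice of the C57BL/6 strain. The sample labels place the mice at 2 months of age, while the main text of the study gives a younger age and names the substrain as C57BL/6J. Its reporting summary names male mice for molecular and omics work, at ages of which the older is close to that of the labels. Both groups carried homozygous floxed Sdhaf4 alleles (Sdhaf4 fl/fl). The WT mice were littermates without Cre, and the KO mice, labelled Sdhaf4-/-, also carried Ckmm-Cre, a transgene driven by the muscle creatine kinase promoter that is active in heart and skeletal muscle. The allele is therefore deleted in striated muscle cells and not by design in the other cells of the heart, and the controls did not carry the transgene.

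TGF-beta is secreted in a latent complex and, once released, binds a pair of serine/threonine kinase receptors, of which the type II receptor phosphorylates the type I receptor. The type I receptor in turn phosphorylates SMAD2 and SMAD3, which move with SMAD4 to the nucleus and change transcription. Activins use related receptors and the same SMAD proteins. Follistatin traps activins outside the cell, and SMAD7 is an inhibitor inside the cell whose transcription TGF-beta itself raises. In the heart the pathway is best known for driving fibroblasts to deposit extracellular matrix.

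Each library held between 23747014 and 31393393 counts (WT 23747014 to 27159228, KO 26542930 to 31393393). Sdhaf4 was examined first, in CPM, which are counts scaled to the TMM-adjusted total of the library. It was at 14.3, 26.7 and 30.3 CPM (lowest, median and highest heart) in WT and at 2.25, 2.35 and 2.73 CPM in KO. Every KO heart was thus below every WT heart, at a log2 fold change of -3.39 ± 0.16 (standard error, SE; edgeR quasi-likelihood test, adjusted p = 1.95e-10). Markers of cardiomyocytes were abundant in both groups (summed 48500 to 53900 CPM in WT and 42200 to 58400 in KO over 9 genes). Of these 9 genes, 1 rose and 4 fell at an adjusted p under 0.05, against 25.6% higher and 25.5% lower over all rows tested. The atrial markers Myl7 and Sln were below the filter on low counts in both groups. The other atrial markers both rose: Nppa from 156 to 408 CPM in WT to 7400 to 15700 CPM in KO, and Myl4 from 1.49 to 3.0 CPM to 2.74 to 4.47 CPM. The study measures Nppa, as Anp, among genes of hypertrophy and fibrosis in the left ventricle, so its level here is not a measure of atrial tissue.

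Of the 10 genes, 6 were higher in KO hearts (Tgfb1, Tgfb2, Tgfb3, Tgfbr1, Tgfbr2 and Smad7), 1 was lower (Tgfbr3), and Inhbb, Smad3 and Fst did not pass an adjusted p of 0.05. Of all rows tested, 25.6% were higher and 25.5% were lower by the same call. For Tgfb2, Tgfb3, Tgfbr1, Tgfbr2 and Smad7 every KO heart lay above every WT heart, a separation found for 14.9% of all rows, and for none of the 10 did every KO heart lie below every WT heart, as it did for 15.2% of all rows. At the stricter call of the study's methods (adjusted p under 0.005 and a log2 fold change over 1), Tgfb2 and Smad7 were higher, against 5.36% of all rows. The median log2 fold change of the 10 genes was 0.62, and that of all rows tested was 0.002. The former lies between the values of Tgfbr2 (0.47) and of Fst (0.76), a gene with few counts that did not pass. These are values of whole tissue, in which fewer cells of a type and less RNA per cell cannot be told apart.

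**Figure D1:**
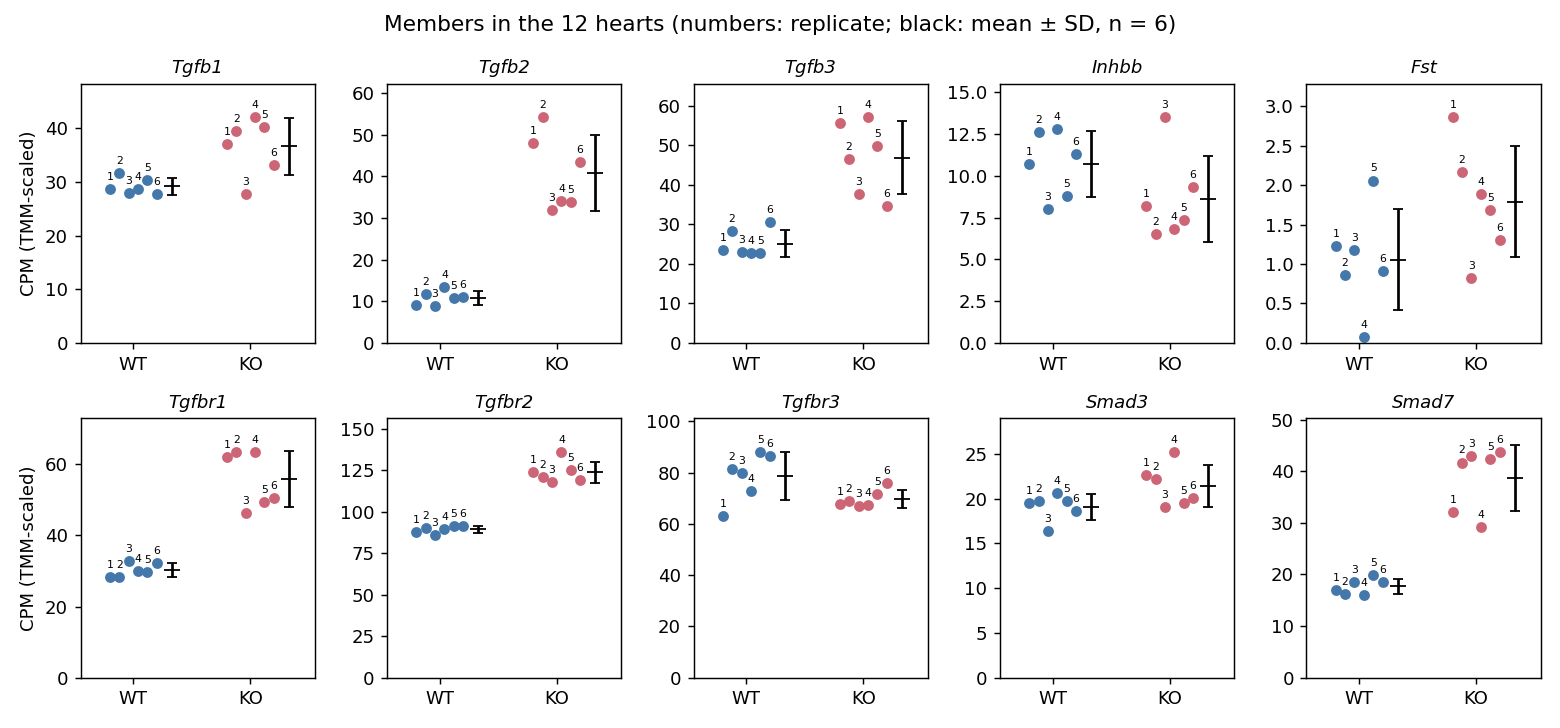
TMM-scaled CPM of the 10 genes in the 6 WT and 6 KO hearts, 1 point per heart with its replicate number, and the mean ± SD of each group in black. The KO points of Tgfb2 lie between 31.8 and 54.1 CPM, all above the WT points, while the groups overlap for Inhbb, Fst, Tgfbr3, Smad3 and Tgfb1.

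The ligand genes moved by unequal amounts, and Tgfb2 moved most. Tgfb2 (MGP_C57BL6NJ_G0017319, C57BL/6NJ assembly, chromosome 1, 199581277 to 199672392, minus strand) was at 8.97, 10.9 and 13.4 CPM (lowest, median and highest heart) in WT and at 31.8, 38.7 and 54.1 CPM in KO. Its lowest KO heart was above its highest WT heart by more than the whole WT range. The log2 fold change was 1.91 ± 0.14 (SE), a 3.76-fold difference (adjusted p = 8e-08). Tgfb3 (MGP_C57BL6NJ_G0020355, chromosome 12, 89365219 to 89387081, minus strand), which encodes a ligand of the same receptors, was at 22.8, 23.2 and 30.5 CPM in WT and at 34.7, 48.1 and 57.1 CPM in KO, also without overlap. It rose by 0.90 ± 0.13 on the log2 scale (adjusted p = 3.75e-05). Tgfb3 overlaps Ttll5 and 1 unnamed row on the opposite strand, the larger of which held 4514 counts in all libraries together against 12120 for Tgfb3. No source used here says whether the counting used strand, so reads of Tgfb3 and of these rows could not be told apart. Tgfb2 also overlaps 2 rows on the opposite strand, the larger of which held 68 counts against 8780.

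Tgfb1, the isoform most studied in fibrosis, rose less. Tgfb1 (MGP_C57BL6NJ_G0032324, chromosome 7, 25010061 to 25029369, plus strand) was at 27.8, 28.7 and 31.7 CPM in WT and at 27.8, 38.2 and 42.0 CPM in KO. For Tgfb1, 5 KO hearts were above every WT heart, and KO replicate 3 was at the level of the lowest WT hearts. The log2 fold change was 0.33 ± 0.08 (adjusted p = 0.00383). Inhbb (MGP_C57BL6NJ_G0016798, chromosome 1, 126840438 to 126848831, minus strand), which encodes the beta B subunit of activins and inhibins, was at 8.03, 11.0 and 12.8 CPM in WT and at 6.52, 7.78 and 13.5 CPM in KO. For Inhbb, 3 KO hearts were below the lowest WT heart, but KO replicate 3 was the highest of all 12. The log2 difference of -0.31 ± 0.17 did not pass (adjusted p = 0.146), and without KO replicate 3 it was -0.49 and passed (adjusted p = 0.00519).

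Sequences upstream of the start sites were taken from RefSeq on GRCm38.p6, a different assembly from that of the count table, and were matched by gene symbol. Windows were found for 6 of the 10 genes (7 windows, since Tgfbr1 has a pair). The 250 bases before the annotated start are shown for Tgfb2 and Tgfb1, the ligand genes with the largest and the smallest rise, written 5′ to 3′ on the strand of the gene. Capitals mark 3 words, each searched on both strands. The word CAGACA contains the core of the SMAD element. An E-box, CACGTG, and the TATA box word TATAAA were added after the sequences had been seen.
Tgfb2 (chr1:186705990-186706239, minus strand): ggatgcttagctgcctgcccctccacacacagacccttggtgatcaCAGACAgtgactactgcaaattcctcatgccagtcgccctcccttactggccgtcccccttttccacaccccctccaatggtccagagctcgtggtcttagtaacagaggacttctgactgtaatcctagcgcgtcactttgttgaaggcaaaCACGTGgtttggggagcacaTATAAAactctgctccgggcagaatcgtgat
Tgfb1 (chr7:25686752-25687001, plus strand): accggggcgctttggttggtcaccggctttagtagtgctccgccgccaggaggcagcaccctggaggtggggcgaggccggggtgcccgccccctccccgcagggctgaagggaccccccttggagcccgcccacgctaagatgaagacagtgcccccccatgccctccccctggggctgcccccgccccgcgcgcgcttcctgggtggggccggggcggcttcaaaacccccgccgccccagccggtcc
In the Tgfb2 window no 2 matches overlap: CAGACA starts at base -204, CACGTG at -51 and TATAAA at -31 from the start site, and none of them was found in the Tgfb1 window. The printed stretches differ in base composition, with 53.6% G and C for Tgfb2 and 75.2% for Tgfb1. Over 300 bases (250 before and 50 after the start), CAGACA was in 2 of the 7 windows and in 21% of 32851 windows of all genes. TATAAA was in 1 of 7 and in 13.6% of all windows, and CACGTG in 1 of 7 and in 7.15%. The palindromic SMAD element GTCTAGAC was in none of the 7 windows and in 0.213% of all. It was in 1 of the 35 windows of the other pathway genes described below. Whether the Smad7 window holds any of these words was not examined. A match of letters is not a measured binding site, and these data hold no measurement of binding.

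The unequal rise changed the make-up of the TGF-beta ligand transcripts. On the deposited FPKM scale, which divides by gene length, Tgfb2 made up 15.9 ± 1.99% (SD, n = 6) of the summed FPKM of Tgfb1, Tgfb2 and Tgfb3 in WT hearts (14.1 to 19.6%) and 33.8 ± 5.36% in KO hearts (26.8 to 39.2%). The groups did not overlap, and the difference of 17.9 percentage points had a p of 0.00216 (two-sided exact permutation test, the smallest p that 6 against 6 hearts allow, 0.00288 after adjustment over 4 such ratios). The share of Tgfb1 was 64.0 ± 2.56% in WT and 45.2 ± 3.41% in KO, and that of Tgfb3 was 20.0 ± 2.20% and 21.0 ± 2.85%. Tgfb1 remained the ligand with the highest mean share on this scale in both groups. The lengths behind the deposited FPKM differ from the lengths the table lists for Tgfb1 and Tgfb2 but not for Tgfb3, and with the listed lengths the share of Tgfb2 was 10.1% in WT and 22.2% in KO.

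**Figure D2:**
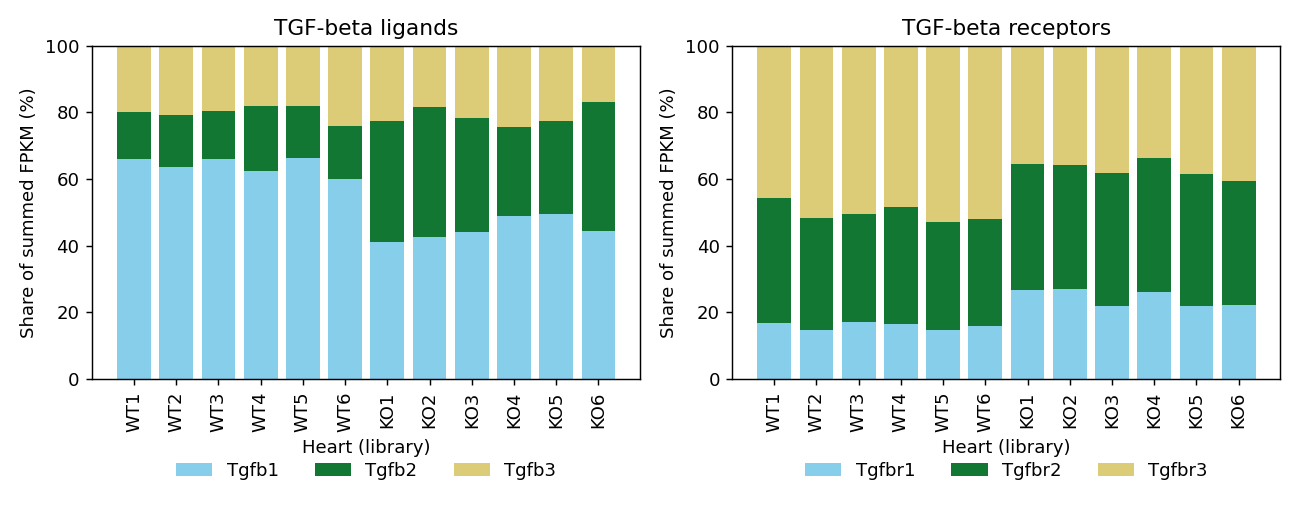
Share in percent of each gene in the summed FPKM of the 3 TGF-beta ligand genes (left) and the 3 TGF-beta receptor genes (right), 1 stacked bar per heart. The Tgfb2 section spans 14.1 to 19.6% in WT hearts and 26.8 to 39.2% in KO hearts, and the Tgfbr3 section spans 45.6 to 53.0% in WT hearts and 33.7 to 40.5% in KO hearts.

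Of the receptor genes, both kinase receptors rose. Tgfbr1, the type I receptor (MGP_C57BL6NJ_G0028687, chromosome 4, 47411724 to 47476189, plus strand), was at 28.3, 29.7 and 32.9 CPM in WT and at 46.4, 56.2 and 63.4 CPM in KO. The groups were far apart, with a log2 fold change of 0.89 ± 0.08 (1.85-fold, adjusted p = 1.71e-07). Tgfbr2, the type II receptor (MGP_C57BL6NJ_G0035899, chromosome 9, 121875876 to 121970840, minus strand), was at 86.3, 89.8 and 91.5 CPM in WT and at 118, 123 and 136 CPM in KO. Its hearts varied least among the 10 genes relative to their mean in WT, and a 1.39-fold rise was clear of that spread (log2 fold change 0.47 ± 0.04, adjusted p = 1.68e-07).

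Tgfbr3 went the other way. It encodes betaglycan, a co-receptor without kinase activity that presents ligand to the type II receptor, in particular the ligand encoded by Tgfb2 (MGP_C57BL6NJ_G0030264, chromosome 5, 113605304 to 113802133, minus strand). It was at 63.0, 80.5 and 88.0 CPM in WT and at 66.9, 68.2 and 76.0 CPM in KO. No KO heart was below the lowest WT heart, WT replicate 1, and the log2 fold change of -0.17 ± 0.07 passed narrowly (adjusted p = 0.0489). The call did not hold in 9 of the 12 fits that left out 1 heart (adjusted p from 0.00255 to 0.107 over the 12), namely those without WT replicate 2, 3, 5 or 6 or without any of KO replicates 1 to 5. Tgfbr3 overlaps 3 other rows, the largest of which held 99 counts against 24256. On the FPKM scale its share of the 3 receptor genes was 50.2 ± 2.70% in WT (45.6 to 53.0%) and 37.0 ± 2.50% in KO (33.7 to 40.5%), with no overlap (two-sided exact permutation test, p = 0.00216, adjusted over 4 ratios 0.00288). Most of this difference comes from the rises of Tgfbr1 and Tgfbr2: with Tgfbr3 at its WT mean and the others at their KO means the share would be 39.7%. The lower share therefore does not by itself show a fall of Tgfbr3. The share of Tgfbr1 was 15.9 ± 1.06% and 24.2 ± 2.60%, and that of Tgfbr2 was 33.9 ± 2.13% and 38.8 ± 1.34%. With the listed gene lengths the share of Tgfbr3 was 34.1% in WT and 23.7% in KO.

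Inside the cell, the inhibitory SMAD gene rose and the receptor-activated SMAD gene did not pass the test. Smad7 (MGP_C57BL6NJ_G0024977, chromosome 18, 78057233 to 78085754, plus strand) was at 16.1, 17.7 and 19.9 CPM in WT and at 29.2, 42.1 and 43.7 CPM in KO. For Smad7, 4 KO hearts lay between 41.7 and 43.7 CPM and KO replicates 1 and 4 at 32.2 and 29.2 CPM, all above WT. The log2 fold change was 1.13 ± 0.10 (2.19-fold, adjusted p = 1.17e-07). Smad3 (MGP_C57BL6NJ_G0035424, chromosome 9, 64976951 to 65091751, minus strand) was at 16.4, 19.6 and 20.6 CPM in WT and at 19.1, 21.2 and 25.2 CPM in KO. For Smad3, 3 KO hearts were above every WT heart, and the log2 difference of 0.17 ± 0.08 had an adjusted p of 0.0788. It passed without KO replicate 3 (0.20, adjusted p = 0.046) and in none of the other fits with 1 heart left out.

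The ratio of Smad7 to Smad3 FPKM was 0.756 in WT and 1.46 in KO (from mean log2 ratios of -0.403 ± 0.202 and 0.546 ± 0.392, SD, n = 6). Every KO heart had a higher ratio than every WT heart (two-sided exact permutation test, p = 0.00216, adjusted over 4 ratios 0.00288). With the listed gene lengths the mean log2 ratios were 0.126 and 1.08, so which of the genes was more abundant in WT hearts depended on the length used, whereas the ratio was higher in KO on both scales.

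Fst, which encodes follistatin, was the least abundant of the 10 genes and the least precisely measured. Fst (MGP_C57BL6NJ_G0021342, chromosome 13, 120588326 to 120594778, minus strand) was at 0.0795, 1.05 and 2.06 CPM in WT and at 0.828, 1.79 and 2.86 CPM in KO. These values rest on 2 to 51 counts per heart in WT and 25 to 89 in KO. For Fst, 2 KO hearts were above the highest WT heart, and the log2 difference of 0.76 ± 0.43 did not pass (adjusted p = 0.157), nor did it in any of the 12 fits with 1 heart left out (0.51 to 1.06). The mean log2 ratio of Fst to Inhbb FPKM was -2.46 ± 1.84 in WT and -0.99 ± 0.962 in KO (two-sided exact permutation test, p = 0.0866, also 0.0866 after adjustment over 4 ratios). Inhbb exceeded Fst in every heart on this scale, and a difference in the ratio was not shown at this spread.

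Ordered by mean FPKM, the WT hearts had Tgfbr3 (28.1 FPKM) first, followed by Tgfb1 (23.7), Tgfbr2 (18.8), Smad3 (13.4), Smad7 (10.1), Tgfbr1 (8.84), Tgfb3 (7.43), Tgfb2 (5.92), Inhbb (2.51) and Fst (0.623). The ranges over hearts of Tgfbr3 and Tgfb1 overlapped, as did those of Smad7 and Tgfbr1, of Tgfbr1 and Tgfb3, and of Tgfb3 and Tgfb2, so these neighbours were not separated over all hearts. Within hearts Smad7 was above Tgfbr1 in 6 of 6, and the upper gene of each of the other 3 pairs was above the lower in 5 of 6. In KO hearts the order was Tgfb1 (29.8 FPKM), Tgfbr2 (26.1), Tgfbr3 (24.9), Tgfb2 (22.3), Smad7 (22.1), Tgfbr1 (16.4), Smad3 (15.1), Tgfb3 (13.9), Inhbb (2.01) and Fst (1.07). Tgfb2 moved from the eighth place to the fourth. Among the KO neighbours only Tgfb3 and Inhbb had ranges apart, although Tgfbr1 was above Smad3, and Inhbb above Fst, within each of the 6 hearts. The order depends on the gene length: with the listed lengths Tgfbr2 came first in both groups.

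The 6 KO hearts did not depart from WT to the same extent. KO replicate 3 was the KO heart nearest to the WT mean for 6 of the 10 genes (Tgfb1, Tgfb2, Tgfbr1, Tgfbr2, Smad3 and Fst), KO replicate 6 for 3 and KO replicate 4 for 1. Across the 6 hearts of one genotype, 45 pairs of the 10 genes were compared in each group, 90 in all. None of the 90 Pearson correlations passed adjustment (exact permutation test, lowest adjusted p = 0.312, and 0.452 for Spearman's rho), while 7 KO pairs and 0 WT pairs had an unadjusted p under 0.05. With 6 hearts, no single pair could pass adjustment over 90 pairs, even at a perfect correlation. These tests therefore could not decide whether the genes varied together between hearts of a genotype.

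**Figure D3:**
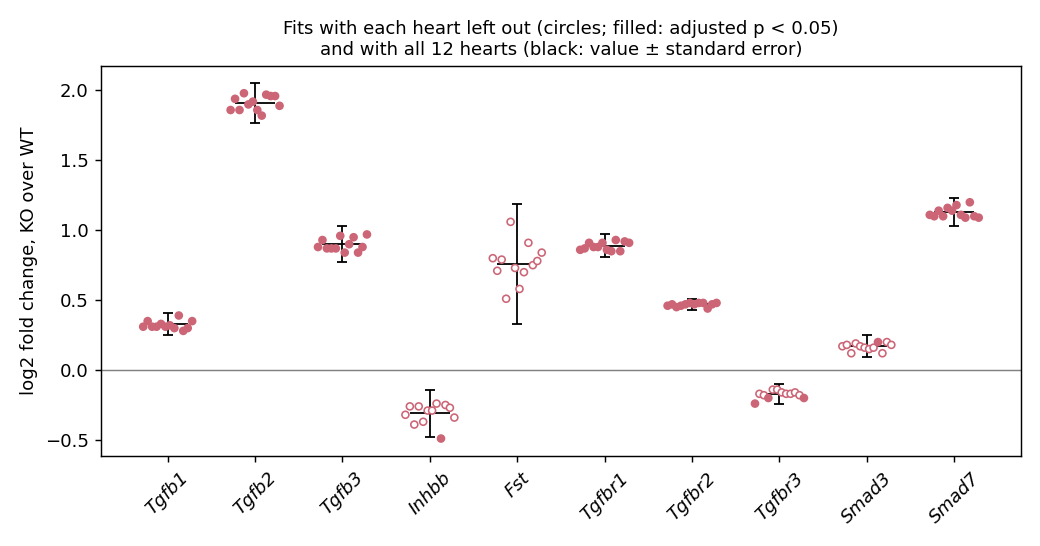
Log2 fold change of the 10 genes, KO over WT, in the 12 fits that each left out 1 heart (circles, filled where the adjusted p is under 0.05) and in the fit of all 12 hearts (black, value ± SE). For 6 genes all circles are filled, Tgfbr3 has 3 filled circles, Inhbb and Smad3 have 1 each, and Fst has none between 0.51 and 1.06.

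The members were set beside further genes of the same pathway. Of 33 such genes, 31 were in the table and 29 were tested: 18 were higher, 5 were lower and 6 did not pass, with a median log2 fold change of 0.34. Over all rows tested, 25.6% were higher and 25.5% were lower, and the median was 0.002. Among 10 genes of ligand latency and activation, 6 rose and 1 fell. The 4 pathway genes with the smallest p were Ltbp3, Ltbp2, Pmepa1 and Ltbp4. Ltbp3 and Ltbp4, whose products belong to the family of latent TGF-beta binding proteins, rose from 40.2 to 44.3 CPM (lowest and highest heart) in WT to 78.7 to 93.2 CPM in KO (1.05 ± 0.05 on the log2 scale, adjusted p = 1.81e-10) and from 137 to 154 CPM to 241 to 336 CPM (0.99 ± 0.07, adjusted p = 3.08e-09). Ltbp2, a family member that does not bind latent TGF-beta, had the largest log2 fold change of the list, from 1.12 to 2.16 CPM to 64.6 to 113 CPM (5.67 ± 0.20, 51.0-fold, adjusted p = 2.28e-10). Ltbp4 has several rows in the table, of which the one with the most counts was used.

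Of 9 other inhibitor genes, 8 rose and 1 fell, against 25.6% higher and 25.5% lower over all rows tested. Pmepa1, which encodes a membrane protein that sequesters receptor-activated SMADs, was at 22.4 to 29.7 CPM in WT and at 61.6 to 81.7 CPM in KO (1.51 ± 0.08 on the log2 scale, adjusted p = 5.53e-10). Of 5 other receptor genes tested, 3 rose and 1 fell, against the same shares of all rows. The other SMAD genes of the activating branch showed small differences. Smad2, the partner of Smad3, was at 16.0 ± 0.525 CPM (SD, n = 6) in WT and 16.9 ± 1.90 CPM in KO (log2 difference 0.07 ± 0.08, adjusted p = 0.439), and Smad4, the shared partner, fell by 0.12 on the log2 scale (SE 0.04, adjusted p = 0.0351). The call of Smad4 was lost without WT replicate 2, KO replicate 3 or KO replicate 4 (adjusted p up to 0.0839). Inhba, which encodes the beta A subunit of activins, was low in both groups, at 0.549 ± 0.287 and 0.572 ± 0.233 CPM (log2 difference 0.07 ± 0.40, adjusted p = 0.903).

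**Figure D4:**
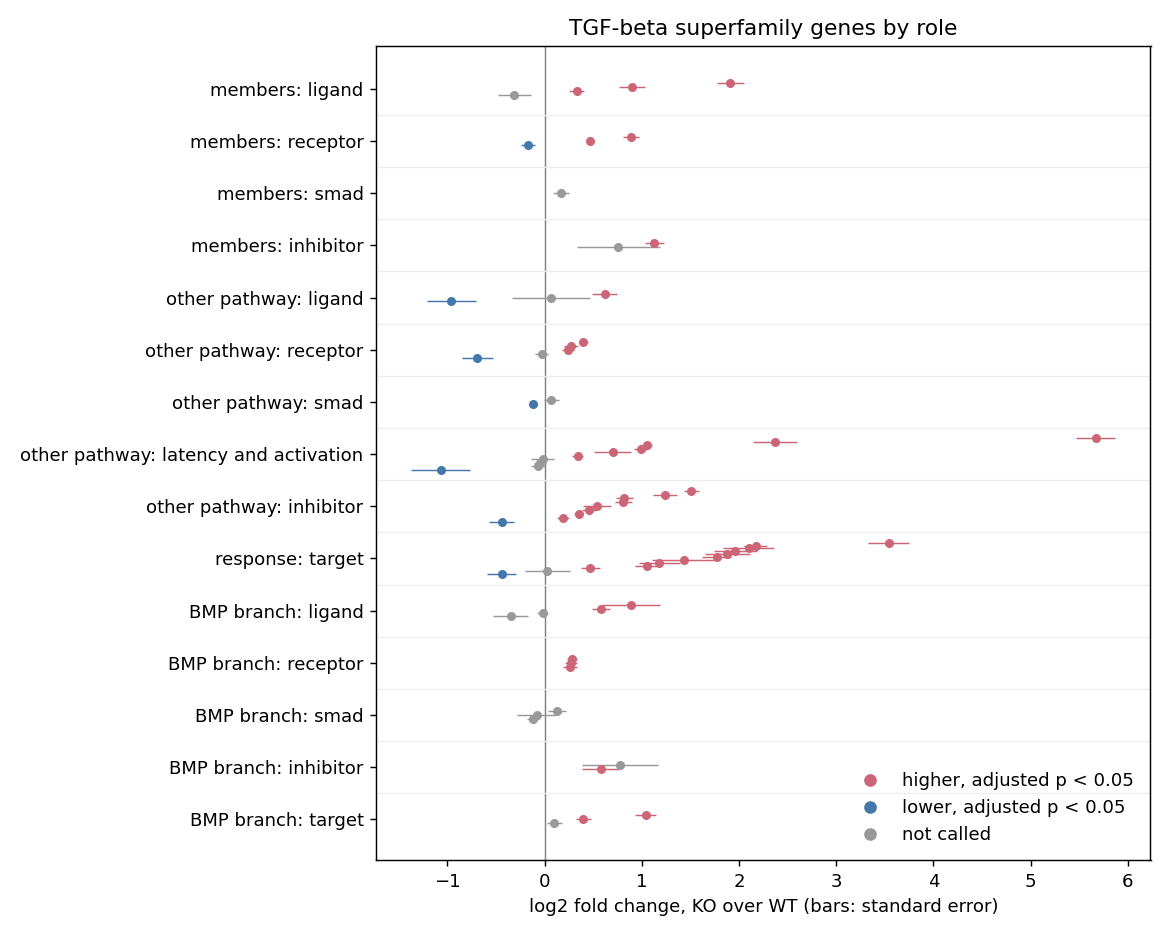
Log2 fold change, KO over WT, with its SE for each tested gene of the 10 members and of the pathway, response and BMP lists, 1 row per list and role. In the inhibitor row of the other pathway genes 8 of 9 points are called higher, and in the response row 10 of 12.

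Of 12 genes whose transcription TGF-beta is known to raise, 10 rose and 1 fell, against 25.6% higher and 25.5% lower over all rows tested, and the median log2 fold change was 1.60 against 0.002. No test of the list was made. Lox, which crosslinks collagen, was at 20.1 to 24.7 CPM in WT and at 82.1 to 147 CPM in KO (2.17 ± 0.12, adjusted p = 2.49e-09). Postn, the matrix protein periostin, was at 37.5 to 57.3 CPM and 293 to 717 CPM (3.54 ± 0.21, adjusted p = 5.57e-08). Ccn2, listed under its older symbol Ctgf and encoding a matricellular growth factor, was at 323 to 449 CPM and 920 to 1790 CPM (1.77 ± 0.15, adjusted p = 3.76e-07). None of these ranges overlapped, but Lox, Postn and Ccn2 were named for their small p. Over the whole list every KO heart was above every WT heart for 8 of the 12 genes, against 14.9% of all rows. The member that fell was Acta2, smooth muscle actin (-0.44 ± 0.15, adjusted p = 0.0272), which was named after its value had been seen and whose call was lost without WT replicate 2, WT replicate 4, KO replicate 3 or KO replicate 6 (adjusted p from 0.0121 to 0.057 over the 12 fits). These genes respond to other signals as well, and TGF-beta activity itself was not measured.

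In the BMP branch, which signals through other SMAD proteins, 8 of 15 genes tested rose and 0 fell in edgeR, with a median log2 fold change of 0.27. Over all rows tested, 25.6% were higher and 25.5% were lower. At an unadjusted p under 0.05 the number lower among the 15 was also 0, and it was 0 in DESeq2 and in limma-voom. Id2, a target of BMP signaling, rose from 6.53 to 10.6 CPM in WT to 15.7 to 19.0 CPM in KO (1.04 ± 0.11, adjusted p = 4.87e-07). The ligand gene Bmp4 (0.58 ± 0.09, adjusted p = 5.33e-05), the type II receptor gene Bmpr2 (0.28 ± 0.05, adjusted p = 0.000283) and the target gene Id3 (0.40 ± 0.08, adjusted p = 0.000312) rose by less. All 3 genes for the SMAD proteins of this branch failed to pass.

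Markers of the cell types present in the tissue were followed beside these genes. The counts below stand against 25.6% higher and 25.5% lower over all rows tested. Of 8 fibroblast markers, 5 rose and 3 fell, and their summed level was 2500 to 3220 CPM in WT hearts and 3010 to 3600 CPM in KO hearts. The sum is mostly Gsn, which fell from a mean of 1720 to 1410 CPM, and Dcn, which rose from 838 to 1290 CPM. It therefore does not stand for the other markers. For 3 of the 8 every KO heart was above every WT heart, and for 2 every KO heart was below. None of the 8 was at 0. Of 8 endothelial markers 4 rose and 1 fell (2970 to 3410 and 2890 to 3460 CPM summed), of 7 mural cell markers 2 rose and 2 fell (1570 to 1750 and 1490 to 1970 CPM), and of 7 macrophage markers 1 rose and 2 fell (241 to 337 and 244 to 383 CPM). Platelet markers, a list included because platelets store Tgfb1 protein, summed to 9.83 to 13.9 CPM in WT and 8.69 to 14.0 CPM in KO, with 1 of 4 tested higher and 1 lower. The single mesothelial marker tested, Wt1, did not pass (the list summed to 4.85 to 12.6 and 5.15 to 10.9 CPM). Of 4 skeletal muscle markers tested, 1 rose and 2 fell (2210 to 2420 and 1830 to 2890 CPM summed). The part of cell composition in the changes of the 10 genes was not tested.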

How the data were processed

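Ventricular wall RNA of 6 WT and 6 KO hearts was sequenced from TruSeq libraries. Per the labels, reads were mapped with HISAT2 2.0.5, and the build field reads mm10, whereas the deposited gene identifiers and coordinates are those of the C57BL/6NJ assembly. The authors counted reads per gene with HTSeq and deposited raw counts for every library, which were the values tested here. The authors also deposited FPKM per library, computed from counts, gene length and library size. The length that the deposited FPKM implies differs from the listed gene length for 8 of the 10 genes. The deposited group means of scaled counts (a signal), log2 fold changes and p-values of the authors' own DESeq comparison were not used.

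Rows were filtered with filterByExpr, scaled with TMM and tested with edgeR 4.0.16 (R 4.3.3, quasi-likelihood test, robust dispersions, SE from the fold change and its F statistic), with Benjamini-Hochberg adjustment over all 17155 rows. CPM are TMM-scaled. Ratios of FPKM were compared by exact permutation of the 12 hearts. Library totals, 23747014 to 31393393 counts, leave only Fst among the members with few counts. Outside the members Inhba was also low, at 6 to 26 counts per heart. Replicates are separate hearts by their labels, and any pair of replicates differed by more than sampling noise.

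The members, the lists (written from general knowledge) and the tests were chosen with earlier results of these data known. Genes named outside the members were the 4 with the smallest p among called genes of each pathway list, and Inhba, Smad2, Smad4 and Sdhaf4. A gene that this rule names is not reported here. Acta2 and the markers Nppa, Myl4, Myl7, Sln, Wt1, Gsn, Dcn, Ckm, Acta1, Tnnt3 and Mylpf fall outside the rule and were named with their values known. Ttll5 was named for its overlap with Tgfb3. Zfyve9, Tgif2, Actn2 and Lyz2 did not match a symbol. The analysis was tested on simulated data. A first simulation fell short of the recovery that had been required of it, after which the simulation and its criteria, but not the analysis, were changed. Correlations between members, and the words CACGTG and TATAAA, were choices made with the data in view. Alternatives were other scalings, tests (DESeq2 1.42.0, limma-voom 3.58.1) and filters, a block on the replicate number, and each heart left out.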

Additional observations from a re-analysis of the deposited data

Results flagged for a closer look

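A heart was singled out where its gap to the nearest other heart of its group, divided by the range of the group, exceeded Dixon's 95% critical value. Of 28 groups of 6 values examined, 2 were singled out, against 1.4 that chance alone would give, and both concern WT replicate 4. Its Tgfb2 share of the TGF-beta ligand FPKM was 19.6%, while the other WT hearts lay between 14.1 and 16.1%. Its log2 ratio of Fst to Inhbb FPKM was -5.99, while the other WT hearts lay between -2.52 and -0.76. The latter rests on 2 Fst counts (0.0795 CPM, 95% Poisson interval 0.00963 to 0.287, counting error only), where the other WT hearts held 24 to 51 counts.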

How the results depend on the processing

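Tgfb1, Tgfb2, Tgfb3, Tgfbr1, Tgfbr2 and Smad7 were called higher in the 9 other scalings, tests, filters and the block, and in the 12 fits with 1 heart left out, and no member changed sign in any of them. The lower call of Tgfbr3 was lost, so that the number of members lower was 0, with DESeq2 size factors, library size only, the DESeq2 test, limma-voom, no robust dispersions and the filter at 1 CPM in 6 libraries (adjusted p from 0.0516 to 0.0656), and this number ranged from 0 to 1 with each heart left out. It was lost without any of WT replicates 2, 3, 5 and 6 and of KO replicates 1 to 5. The number of response genes lower was 0 with no filter and 0 to 1 with each heart left out (0 without WT replicate 2, WT replicate 4, KO replicate 3 or KO replicate 6). With each heart left out, the median log2 fold change ranged from 0.49 (without WT replicate 4) to 0.69 for the members and from 1.5 to 1.69 for the response genes. The KO minus WT difference in the log2 ratio of Fst to Inhbb ranged from 0.768 (without WT replicate 4) to 1.81, and it passed, with an unadjusted permutation p, without WT replicate 5 (p = 0.0346) and without KO replicate 3 (p = 0.0238). Smad4 was not called with library size only, no filter or the block (adjusted p from 0.0616 to 0.0908), nor Acta2 with no filter (0.0622). Inhba, not called in any fit, ranged from -0.1 to 0.27 with each heart left out and turned negative without WT replicate 5 (-0.09) or 6 (-0.09) and without KO replicate 1 (-0.02) or 4 (-0.1). The cause of these changes was not tested. Hearts of the same replicate number did not deviate together (correlations from -0.162 to 0.024), and the main fit used no pairing. This check cannot exclude that hearts of the same number shared a litter or a preparation. With the replicate number as a block, 6 members were higher and 1 was lower, and the median was 0.66. Among the genes named outside the marker lists only the call of Smad4 changed. Fst was the only member under 5 CPM on average, with 2 counts in WT replicate 4, and its hearts differed by more than their counting intervals, such as 2.30 to 3.52 CPM in KO replicate 1 and 0.536 to 1.22 CPM in KO replicate 3.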
